A study of Mus musculus with 10 samples.

Results

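This comparison sets 5 haploid androgenetic embryonic stem cell (AG-haESC) arrays against 3 arrays of the diploid embryonic stem cell line E14, and asks how the autosomal transcription programmes of the haploid lines, beyond imprinting, differ from those of E14. The members were taken by their titles, AGH-OG-1 to AGH-OG-4 and AGH-EG-1 on the haploid side and E14 rep1 to rep3 on the diploid side, which makes 8 of the 10 arrays of the series. Expression was read on the Affymetrix GeneChip 430 2.0 array, where 34945 probe sets pair with exactly 1 gene symbol. These gave 13251 genes that passed a filter on dim signal, of which 12683 are autosomal and outside a list of imprinted genes. The results below concern those 12683 genes.

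The AG-haESC lines came from androgenetic blastocysts, embryos whose genome is paternal alone, and are of C57BL/6J background. AGH-OG-1, AGH-OG-2, AGH-OG-3 and AGH-OG-4 carried an Oct4-EGFP transgene and AGH-EG-1 an Actin-EGFP transgene. They were taken at passages 14, 15, 12, 14 and, for AGH-EG-1, 15, after growth on feeder cells in ES medium with CHIR99021, an inhibitor of GSK3 that raises WNT signalling, and PD0325901, an inhibitor of MEK that blocks ERK signalling. E14 is a male 129/Sv line without a transgene, taken at passage 17, and no source used here gives its medium. Sorting was on DNA content after staining in 15 µg/ml of the dye Hoechst 33342, taking the 1n peak for AG-haESC and the 2n peak for E14, and the design describes the sorted cells as being in G1 or G0. The remaining 2 arrays are mouse embryonic fibroblasts (MEF, B6D2F1, passage 2), which entered the fit for the spread between arrays and serve as a reference for fibroblast markers. Ploidy, parental origin of the genome, strain, passage, transgene and culture differ between the groups together and cannot be told apart, and nor can a sequence difference between strains under a probe. Each AG-haESC array is a line of its own, whereas the E14 arrays share 1 line, so p-values hold no spread between diploid lines, and the labels call the E14 arrays biological replicates without saying whether they were separate cultures.

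Mouse embryonic stem cells keep the state of the early epiblast. With the MEK and GSK3 inhibitors they settle in a uniform naive state, in which ERK target genes and genes of the later, primed epiblast are low. Haploid lines can double their DNA in culture and become diploid, which is why the haploid peak has to be sorted again and again. Stem cells of this kind also express genes that are otherwise typical of the germline and of cleavage-stage embryos, and they respond weakly to interferon.

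Levels are log2 signals, each relative to its own array, and a difference of 1 is a 2-fold difference. The defining stem cell markers were present on every array. Pou5f1, the core factor also called Oct4, was between 13.35 and 13.63 in AG-haESC and between 13.35 and 13.84 in E14, against a mean of 2.64 in MEF. Sox2, its partner on DNA, was between 13.27 and 13.79 and between 13.41 and 13.71. Other stem cell markers differed. Nanog, a factor of naive cells, was between 14.06 and 14.22 in AG-haESC and between 13.01 and 13.45 in E14, while Zfp42, a naive marker also called Rex1, was between 10.90 and 12.11 and between 12.77 and 13.64. Both groups thus carried these markers above the MEF level, with ranges that overlapped for Pou5f1 and Sox2 and that lay apart, in opposite directions, for Nanog and Zfp42.

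A gene was called when its adjusted p was below 0.05 (limma, Benjamini-Hochberg over all genes tested) and its difference at least 2-fold. By this rule 492 autosomal genes (3.88%) were called higher in AG-haESC than in E14 and 478 (3.77%) lower, 7.65% in all, and these shares are the background for every list below. The median difference over the autosomal genes was -0.09. All lines lay above every E14 array in 8.49% of these genes and below every one in 13.1%, so an absence of overlap is common on its own. E14 rep3 stood apart from the other E14 arrays. It lay at least 2-fold above the mean of rep1 and rep2 in 8.25% of the autosomal genes and at least 2-fold below it in 11.8%, or 20.03% in all, while each other array lay 2-fold away from the mean of the other arrays of its group in 5.75% to 9.97%. Without rep3 the calls numbered 574 higher (4.53%) and 649 lower (5.12%). Of the genes called with all arrays, 405 higher (82.3%) and 372 lower (77.8%) were also called without rep3, which makes 70.6% and 57.3% of the calls without it, and 0 were called in the opposite direction. The number lower was 314 without E14 rep1 and 285 without rep2. The counts of each list are therefore given with and without that array.

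The largest increases were found in genes of several unrelated roles. These 12 genes were picked among those called with and without E14 rep3, by the size of the difference after signals of the dimmer group had been raised to at least the array median, so that a gene near background in E14 ranks by a lower bound. In all of them the AG-haESC lines lay above every E14 array, as the choice required. Xaf1, an interferon-inducible gene that promotes cell death, read 11.85, 12.12, 12.11, 9.12 and 10.67 in AGH-OG-1, AGH-OG-2, AGH-EG-1, AGH-OG-3 and AGH-OG-4, the order used throughout, and 5.33, 4.59 and 6.18 in E14 rep1, rep2 and rep3. The lines were far above E14, with AGH-OG-3 the lowest of them, and the difference was 5.81 ± 0.63 (SE, adjusted p = 0.000164). Only 1 E14 array was above its array median, so the size of the difference is uncertain. Its other probe set differed by -2.36 and was not called, so the call for Xaf1 rests on its brighter probe set. Rgcc, a regulator of the cell cycle, read 10.82, 10.23, 10.96, 11.08 and 11 in the lines against 6.74, 6.97 and 6.69. The values were tight in both groups, and Rgcc was higher by 4.02 ± 0.20 (adjusted p = 1.41e-06), as it was on its other probe set.

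Gpat3, an enzyme that starts the synthesis of triglycerides, read 10.48, 9.76, 10.09, 9.95 and 10.31 in the lines and 4.12, 6.01 and 2.98 in E14. All its E14 values were below the medians of their arrays, where signal is mostly background, so it is given as at least 16.9-fold higher (adjusted p = 5.24e-05). Elobl was at least 19.2-fold higher by the same reckoning (adjusted p = 2.08e-05). Gsto1, a glutathione transferase of the omega class, read 13.63, 13.74, 13.29, 12.36 and 13.70 against 9.47, 9.43 and 11.01, higher by 3.38 ± 0.38 (adjusted p = 0.000213). In Gsto1 the E14 rep3 value lay between the other E14 arrays and the lines. Htra1, a secreted serine protease, was higher by 3.36 ± 0.30 (adjusted p = 5.24e-05). Mep1b, a subunit of the metalloprotease meprin, was higher by 4.93 ± 0.77 (adjusted p = 0.00155). Its E14 values were 5.70, 3.37 and 8.07, of which only rep3 was above its array median, so the size of this difference is uncertain. Nlrp4f, of a family expressed in oocytes and early embryos, was higher by 4.08 ± 0.39 (adjusted p = 6.93e-05), and Obox6, an oocyte-specific homeobox gene, by 3.74 ± 0.45 (adjusted p = 0.000306). Ifi27, Sycp1 and Pramel6 complete the 12 and are described with their lists.

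Among the 12 largest decreases by the same measure, Tmem87a, a membrane protein of the Golgi, read 7.04, 7.61, 7.56, 7.11 and 7.11 in the lines and 11.13, 11.10 and 10.44 in E14. The groups were separated by more than 2 log2 units, and the difference was -3.60 ± 0.21 (adjusted p = 3.67e-06). Ap1s3, a subunit of the clathrin adaptor AP-1, read 5.99, 6.01, 6.23, 6.13 and 5.92 against 9.26, 9.27 and 9.31. It was lower by -3.23 ± 0.21 (adjusted p = 7.47e-06), with its level in AG-haESC close to the array medians. Satb1, a chromatin organiser, was lower by -2.82 ± 0.28 (adjusted p = 8.89e-05) and was called lower on both of its other probe sets too. Bcat2, the mitochondrial aminotransferase of branched-chain amino acids, was lower by -2.62 ± 0.33 (adjusted p = 0.00042), Stap2, a signalling adaptor, by -2.40 ± 0.21 (adjusted p = 4.61e-05), and Atp10d, a phospholipid flippase, by -2.36 ± 0.24 (adjusted p = 9.96e-05). In Calml4, a calmodulin-like gene, and Trh, the precursor of thyrotropin-releasing hormone, E14 rep3 was well above the other E14 arrays, at 11.59 against 9.30 and 9.17 and at 11.97 against 8.80 and 8.88. Their differences were -2.94 ± 0.48 and -2.76 ± 0.66 with rep3 and -2.16 and -1.72 without it. Egr1 of this group is described with the ERK targets. The others were Kbtbd11 (-4.10 ± 0.78), Nphs1 (-2.80 ± 0.31), which encodes nephrin, and Rac3 (-2.37 ± 0.36). Kbtbd11 was above the array median in only 2 of the AG-haESC lines, so the size of its difference is uncertain.

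**Figure D1:**
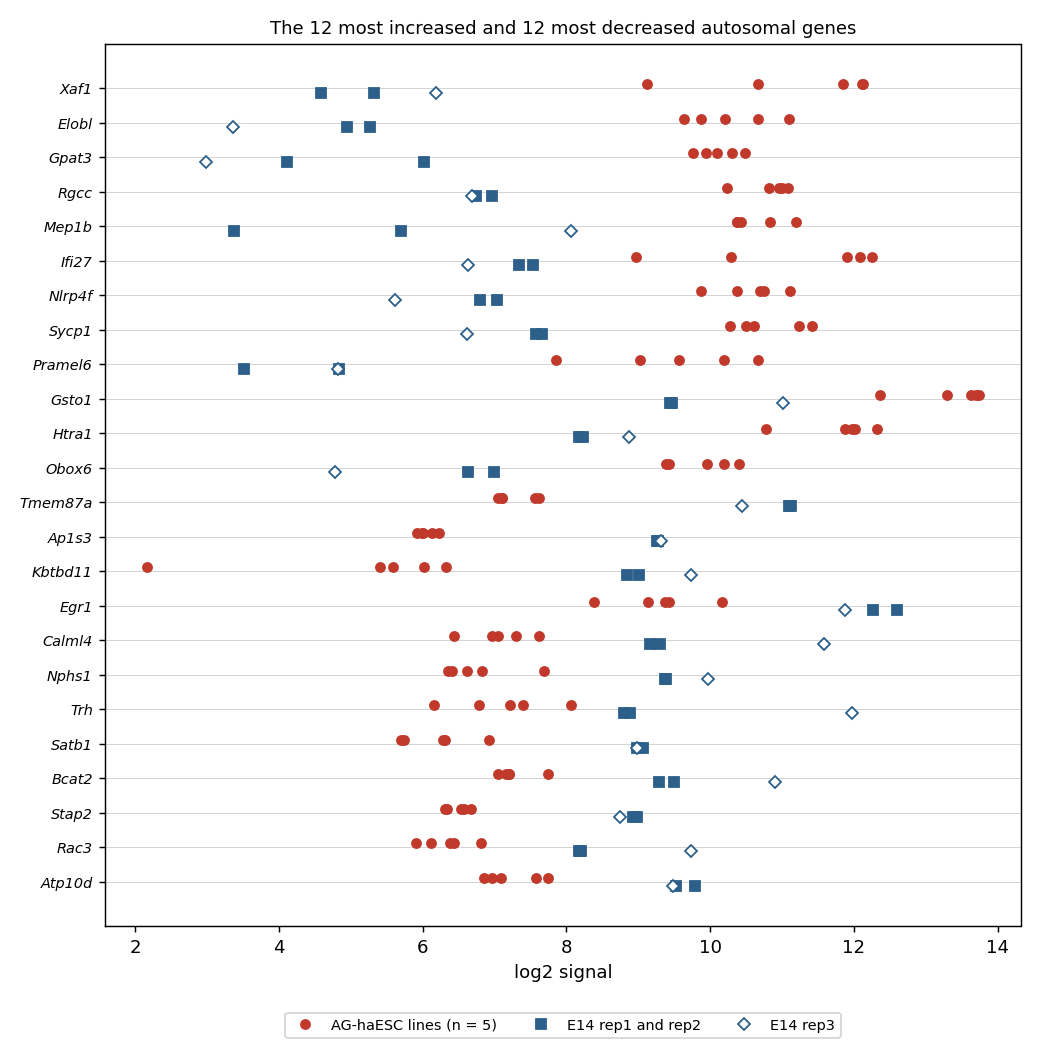
Log2 signal (horizontal axis) of the 12 increased and the 12 decreased autosomal genes with the largest differences after signals of the dimmer group were raised to at least the array median, with a red circle for each AG-haESC line (n = 5), filled squares for E14 rep1 and rep2 and an open diamond for E14 rep3. The AG-haESC and E14 values do not overlap in any of these genes, which the choice of genes required, and E14 rep3 lies away from the other E14 arrays in Trh, Calml4 and Mep1b.

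The machinery of growth and division held nearly no calls. Of 50 DNA replication genes, 62 genes of oxidative phosphorylation, 42 of the cytosolic ribosome, 34 of the proteasome and 25 of the unfolded protein response, 0 were called in either direction by limma, and 7, 4, 3, 5 and 2 of them passed the adjusted p without reaching 2-fold. Pcna, the sliding clamp of DNA polymerase, read 14.25, 14.34, 14.44, 14.52 and 14.12 in the lines and 14.71, 14.76 and 14.63 in E14. It was lower in all lines, by -0.37 ± 0.09 (adjusted p = 0.0239), and so passed the adjusted p but was not called. The medians of the replication, oxidative phosphorylation and ribosome lists were -0.18, -0.01 and -0.12, close to the autosomal median of -0.09. Of 46 genes of mitosis 1 was higher, Nuf2, of the kinetochore complex that holds microtubules, at 10.43 ± 0.22 (SD, n = 5) against 9.27 ± 0.30 (n = 3), a difference of 1.17 ± 0.19 (adjusted p = 0.00212). Without E14 rep3, 3 mitosis genes were higher and 1 ribosome gene was lower, and the other counts of this paragraph stayed at 0. Because every array is scaled to the same mean, a difference in total RNA per cell cannot be seen in these values.

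Among 29 genes of G1 control, 1 was higher and 2 were lower, with 3 and 2 without E14 rep3, and the D-type cyclins differed among themselves. Ccnd1, the cyclin most responsive to growth factors, read 9.18, 10.20, 10.12, 9.46 and 9.18 in the lines and 11.17, 11.10 and 12.31 in E14, lower by -1.90 ± 0.32 (adjusted p = 0.00266). Ccnd3, another cyclin that activates Cdk4 and Cdk6, read 12.54, 12.36, 12.30, 12.21 and 12.16 against 10.90, 10.83 and 11.23. It was higher by 1.32 ± 0.12 (adjusted p = 6.59e-05), though its other probe sets differed by -1.11 and 1.54 and the call was lost when they were averaged. Ccnd2, the other D-type cyclin, differed by -0.11 ± 0.83 with all arrays and was called higher by 1.36 without E14 rep3 (adjusted p = 0.0146). With all arrays its 6 other probe sets differed by -1.28 to 0.54, 5 of them below 0. Cdk4 itself differed by -0.19 ± 0.10 (adjusted p = 0.23). Cdk6 was lower by -1.58 ± 0.42 (adjusted p = 0.0261), a call lost without AGH-OG-1, AGH-OG-4 or E14 rep3, with adjusted p up to 0.0651.

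**Figure D2:**
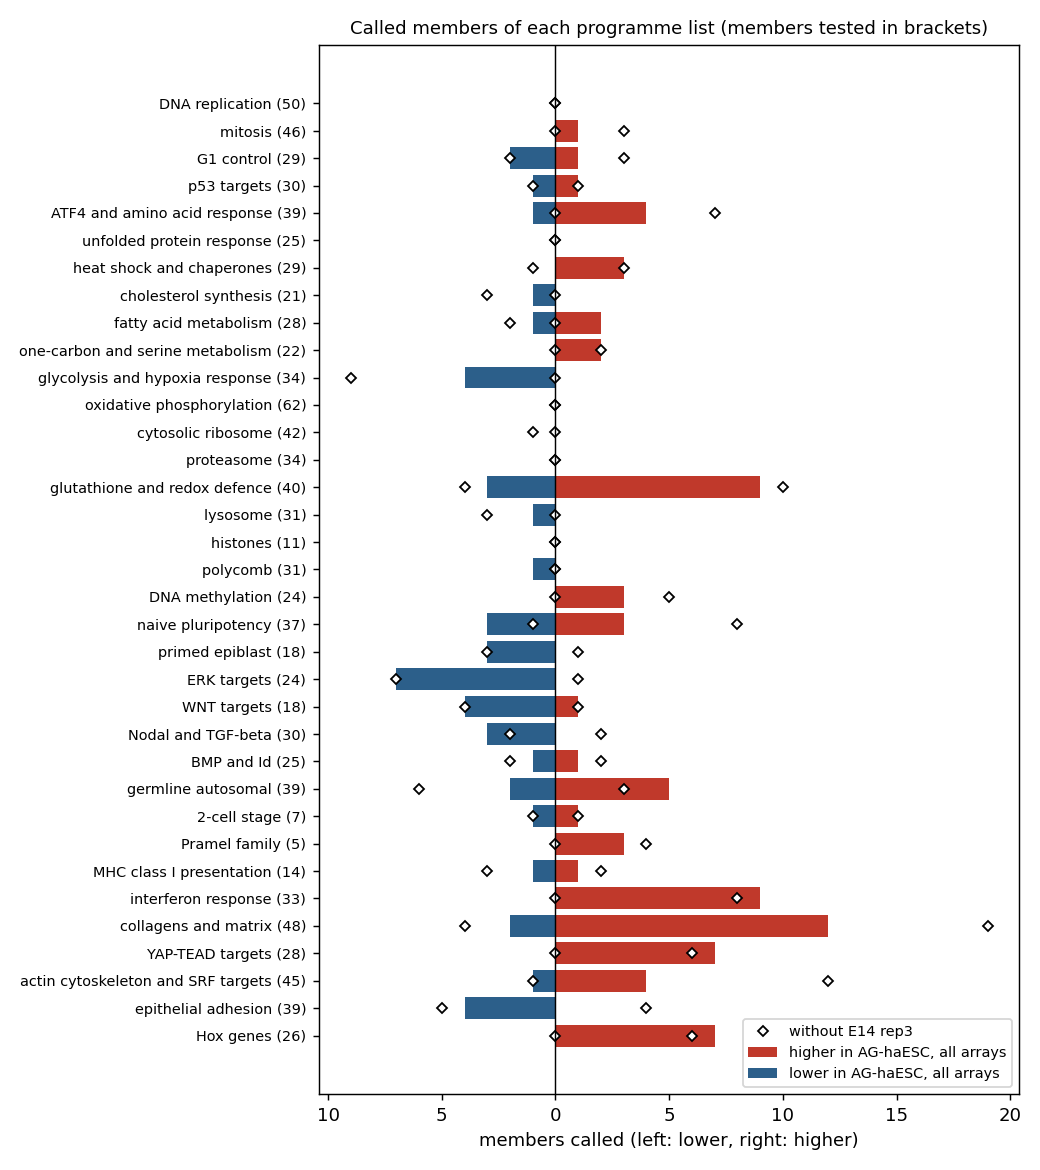
Number of members called higher (red bars, to the right) or lower (blue bars, to the left) in AG-haESC than in E14 for each programme list of at least 5 tested genes, with the number tested in brackets. Open diamonds give the same counts without E14 rep3, and they lie away from the bars mainly for collagens and matrix, actin, glycolysis and hypoxia, naive pluripotency and the germline.

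Genes of glutathione and redox defence differed in both directions, with 9 of 40 higher (22.5%, background 3.88%) and 3 lower (7.5%, background 3.77%), a median of 0.33 and counts of 10 and 4 without E14 rep3. Glutathione is the main thiol of the cell, and the list holds the enzymes that make it, recycle it and join it to foreign compounds. Nqo1, a quinone reductase and a classical target of the factor Nrf2, read 11.07, 10.23, 10.55, 10.54 and 11.05 in the lines and 7.88, 8.28 and 8.70 in E14. All lines were above all E14 arrays, and Nqo1 was higher by 2.40 ± 0.23 (adjusted p = 8.58e-05). Gss, which completes the synthesis of glutathione, read 10.68, 10.59, 10.35, 10.23 and 10.81 against 9.63, 9.30 and 8.76, higher by 1.30 ± 0.20 (adjusted p = 0.00161), and was also called on its other probe set. Gsr, which returns oxidised glutathione to its reduced form, was higher by 1.11 ± 0.13 (adjusted p = 0.000312), a call lost with the mean of its probe sets. The transferase Gsta2 was at least 2.90-fold higher (adjusted p = 0.00125). In the opposite direction, Gstt2, a transferase of the theta class, read 5.90, 6.82, 6.68, 7.39 and 6.92 against 8.53, 8.77 and 9.45, lower by -2.18 ± 0.32 (adjusted p = 0.00121). Mgst1, a microsomal transferase, was lower by -1.68 ± 0.23 (adjusted p = 0.000672). Transferases thus lay on both sides. Over the list 27 of the 40 differences were positive. All lines lay above every E14 array in 17 members and below every one in 5, where the shares over all autosomal genes were 8.49% and 13.1%. The brightest members that were not called were Txn1, thioredoxin (0.27 ± 0.11), and Gpx4, which protects lipids from peroxidation (-0.30 ± 0.12).

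In the list of ATF4 targets and the amino acid response, 4 of 39 genes were higher (10.3%) and 1 was lower, and 7 and 0 without E14 rep3. ATF4 is the transcription factor that cells build up when amino acids run short. Atf4 itself read 12.80, 12.95, 12.77, 13.15 and 12.53 in the lines and 9.81, 10.39 and 12.64 in E14. E14 rep3 lay inside the range of the lines while rep1 and rep2 were far below it, so the difference was 1.89 ± 0.47 (adjusted p = 0.021) with all arrays and 2.74 without rep3 (adjusted p = 9.17e-06). Cth, which makes cysteine from cystathionine, also had rep3 far above rep1 and rep2, though below every line, at 12.59, 12.34, 12.34, 12.32 and 12.49 against 9.79, 9.84 and 12.02, with a difference of 1.86 ± 0.40 (adjusted p = 0.0104) and of 2.60 without rep3. Both calls were lost without E14 rep1 or rep2, with adjusted p up to 0.0902 for Atf4 and 0.0519 for Cth. The count of higher members was 1 without E14 rep1 and 2 without rep2. Jdp2, a repressor of the AP-1 family, was called under every alternative run, at 10.07, 9.16, 9.19, 9.55 and 9.97 against 7.77, 7.78 and 6.56 (2.22 ± 0.31, adjusted p = 0.000802). Asns, asparagine synthetase and a standard ATF4 target, differed by 0.49 ± 0.16 (adjusted p = 0.0597) and was not called, and the median of the list was 0.14.

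Of 29 heat shock and chaperone genes 3 were higher (10.3%) and 0 lower, or 3 and 1 without E14 rep3. Hspb8, a small heat shock protein, was higher by 1.94 ± 0.28 (adjusted p = 0.00106) and Hsph1, of the Hsp110 class, by 1.34 ± 0.26 (adjusted p = 0.00565). Cryab, the small chaperone alpha B crystallin, read 9.60, 10.17, 9.41, 7.18 and 10.99 against 5.85, 5.62 and 8.02. In Cryab the lowest line and E14 rep3 overlapped, and its call (2.98 ± 0.77, adjusted p = 0.0243) was lost without AGH-OG-2, E14 rep1 or E14 rep2, with adjusted p up to 0.101. The abundant chaperones Hspa8 and Hsp90aa1 differed by -0.11 ± 0.10 and 0.08 ± 0.08. Of 22 genes of one-carbon and serine metabolism 2 were higher (9.09%) and 0 lower, with and without E14 rep3. Nnmt, which uses the methyl donor S-adenosylmethionine to methylate nicotinamide, read 9.19, 8.40, 8.85, 9.03 and 9.25 against 4.79, 4.59 and 5.48 and was at least 7.49-fold higher (adjusted p = 7.47e-06). Folr1, a folate receptor, was higher by 1.67 ± 0.15 (adjusted p = 5.98e-05). Neither gene overlapped between the groups.

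Interferon response genes were higher for 9 of 33 members (27.3%) and lower for 0, with 8 and 0 without E14 rep3, and their median difference was 1.32. Interferons signal through JAK kinases to a STAT complex that binds the interferon-stimulated response element, whose core is GAAA, any 2 bases and GAAA again. The lines were not alike. The list value of an array, the median over members of the log2 signal centred on each gene's mean over the 8 arrays, was 0.82, 0.91 and 1.28 in AGH-OG-1, AGH-OG-2 and AGH-EG-1 and -0.30 and -0.46 in AGH-OG-3 and AGH-OG-4, against -0.94, -0.67 and -0.27 in E14. The last 2 lines were thus level with E14 rep3. Usp18, the protease that removes the ubiquitin-like protein ISG15, showed it most plainly, at 10.07, 10.20, 11.21, 6.46 and 5.39 against 4.60, 5.06 and 4.31. Its call (at least 6.18-fold, adjusted p = 0.0343) was lost without any 1 of AGH-OG-1, AGH-OG-2, AGH-EG-1 or the 3 E14 arrays, with adjusted p up to 0.0925.

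Oas1a, an antiviral sensor of double-stranded RNA, read 11.80, 11.89, 12.53, 10.35 and 9.35 against 8.74, 8.90 and 9.50, higher by 2.14 ± 0.59 (adjusted p = 0.0301), with an overlap of AGH-OG-4 and E14 rep3. That call and the call of Ifitm3, a membrane protein that blocks virus entry (2.38 ± 0.62, adjusted p = 0.0239), were lost without AGH-OG-1, AGH-OG-2, AGH-EG-1, E14 rep1 or E14 rep2. Ifi27, a mitochondrial interferon-induced protein, read 12.09, 11.91, 12.25, 8.97 and 10.29 against 7.53, 7.34 and 6.62. It was called with every array left out in turn (3.94 ± 0.65, adjusted p = 0.00228), as were Xaf1 and the GTPase gene Igtp (1.54 ± 0.29, adjusted p = 0.00472). Without any 1 of AGH-OG-1, AGH-OG-2, AGH-EG-1, E14 rep1 or E14 rep2 the count for the list was 4. Bst2, or tetherin, which holds budding viruses at the membrane, read 12.46, 11.65, 11.50, 8.50 and 9.21 against 9.04, 9.12 and 9.47 and was called only without AGH-OG-3 among the arrays left out (1.45 ± 0.75 and adjusted p = 0.217 with all arrays). Among genes that were not called, those of the greatest signal, Ifitm2 and Trim25, differed by 0.17 and 0.23.

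That core was looked for on both strands in windows of 250 bases before to 50 bases after each RefSeq gene start (GRCm38.p6). It was found in 14 of 26 interferon list members with a window (53.8%) and in 3.59% of the autosomal genes tested, against 3.99% of all genes with a window. These 4 stretches show it, with the match in capitals and each written on the strand of its gene. Those of Oas1a and Bst2 read the core directly, as does that of Igtp, and that of Rsad2, an antiviral enzyme, holds it on the other strand, where it reads TTTC, any 2 bases and TTTC.
Oas1a, chr5:120907526-120907565, minus strand: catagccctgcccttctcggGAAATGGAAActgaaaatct
Igtp, chr11:58199502-58199551, plus strand: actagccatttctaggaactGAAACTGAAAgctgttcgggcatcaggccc
Bst2, chr8:71537573-71537622, minus strand: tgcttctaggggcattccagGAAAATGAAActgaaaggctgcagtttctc
Rsad2, chr12:26456543-26456592, minus strand: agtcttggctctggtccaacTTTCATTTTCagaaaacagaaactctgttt
Over all autosomal genes, the core was in 33 of 373 genes called higher (8.85%) and in 7 of 376 called lower (1.86%). Of those 33 genes, 5 are members of the interferon list and 28 are not. A match is a run of letters and does not show binding.

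Among those 28 genes were Trim12a, Trim5 and Trim34a, neighbours on chromosome 7 within a cluster of antiviral TRIM genes, which were chosen here after their values were seen. Trim34a read 9.48, 9.64, 9.59, 8.39 and 8.96 in the lines and 5.69, 5.11 and 4.65 in E14, at least 9.03-fold higher (adjusted p = 3.28e-05). Trim12a read 6.54, 7.51, 7.88, 5.81 and 6.62 against 0.37, 0.33 and 1.34, at least 1.78-fold higher since all E14 values were below the array medians, and its call was lost with signals floored there. All 5 lines lay above E14 in both genes. These genes are close copies of each other, and whether their probes also bind the transcripts of related copies was not tested.

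**Figure D3:**
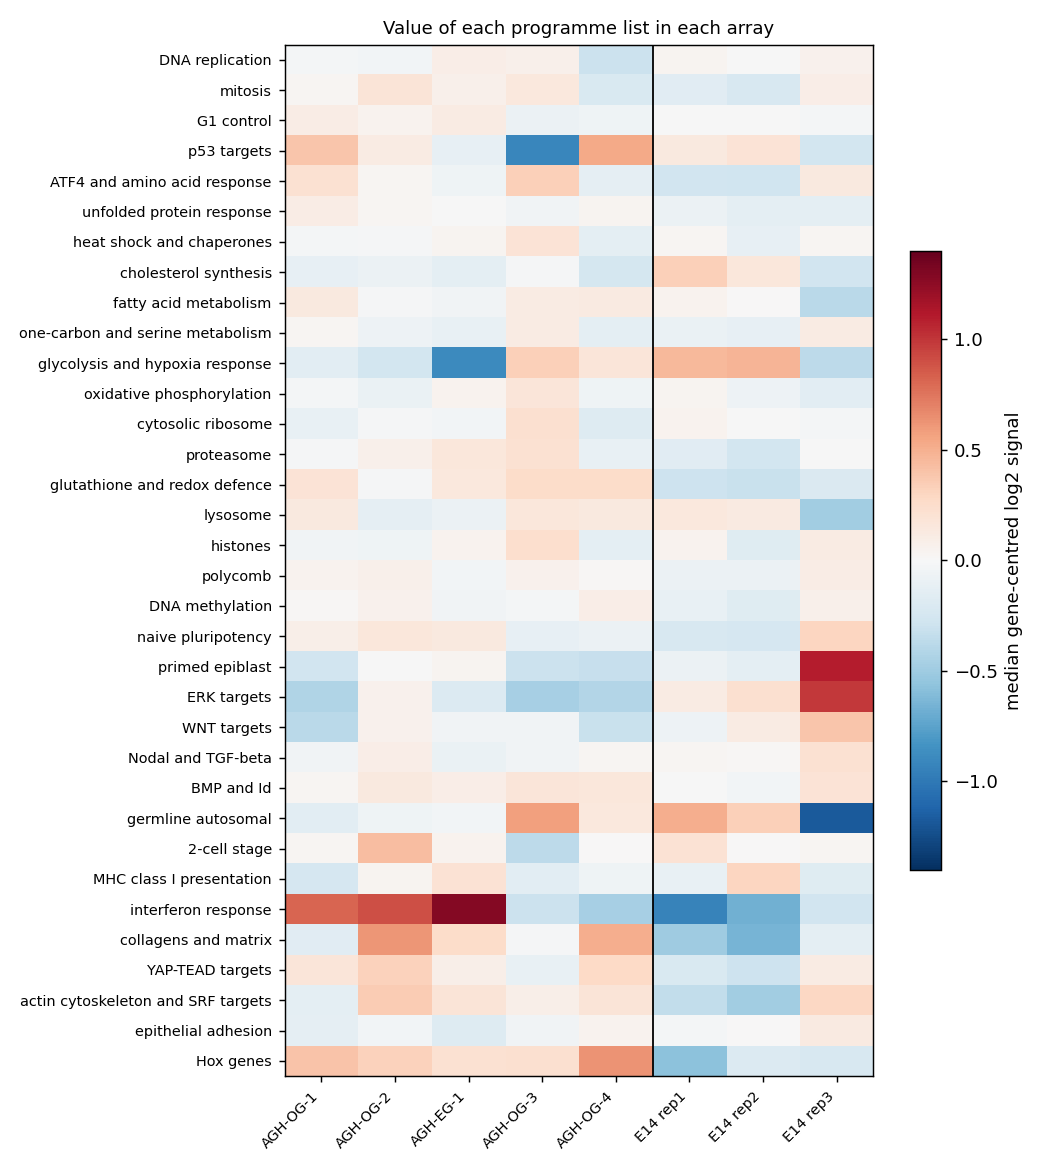
List value of each array, the median over members of the log2 signal centred on each gene's mean over the 8 arrays, for the programme lists with at least 5 tested genes other than the Pramel family, whose values run past the colour scale. Columns are arrays, with AG-haESC left of the line, and the strongest single cells are the interferon list in AGH-EG-1 (1.28) and, in E14 rep3, the germline (-1.17), primed (1.10) and ERK target (0.98) lists. The p53 list in AGH-OG-3 is at -0.91.

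The lines also differed among themselves in p53 targets, genes switched on by the tumour suppressor p53 after DNA damage and other stress. Of 30 p53 targets 1 was higher and 1 lower in AG-haESC than in E14, with and without E14 rep3. Pmaip1, which encodes the death-promoting protein Noxa, read 12.20, 11.87, 11.20, 10.58 and 12.77 against 9.68, 9.97 and 8.85 and was higher by 2.22 ± 0.43 (adjusted p = 0.00543). Bbc3, which encodes Puma, another protein of that kind, was lower by -1.14 ± 0.21 (adjusted p = 0.0046). AGH-OG-3 stood below the other lines over the list. In it 16 of the 30 members (53.3%) were at least 2-fold below the mean of the other 4 lines, and 22 were at their lowest of the 5 lines, while over all autosomal genes 6.02% were 2-fold below in that line. Ccng1, cyclin G1, read 13.26, 13.08, 12.91, 9.96 and 13.39, against 13.05, 13.07 and 12.43 in E14. Cdkn1a, the cyclin-dependent kinase inhibitor p21, read 11.69, 11.63, 11.03, 9.94 and 12.54, and Mdm2, the ubiquitin ligase that degrades p53, 11.95, 11.74, 11.14, 10.35 and 12.44. Phlda3 and Plk2 were likewise at their lowest in AGH-OG-3, at 8.49 and 7.67 against at least 10.80 and 9.83 in the other lines. AGH-OG-3, taken at the lowest passage, rests on 1 array, so this has no replicate check.

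Genes of glycolysis and the hypoxia response were lower for 4 of 34 members (11.8%) and higher for 0, with a median difference of -0.36. Without E14 rep3 the counts were 9 and 0 and the median -0.83, and without AGH-EG-1 2 were lower. The hypoxia-inducible factor HIF1 drives most of these genes when oxygen is low. AGH-EG-1 was the lowest line, with 18 of the 34 (52.9%) at least 2-fold below the mean of the other 4 lines against 4.16% of all autosomal genes. E14 rep3 was low as well, with 14 members at least 2-fold below rep1 and rep2. Aldoc, an aldolase, read 9.01, 9.50, 7.44, 10.74 and 10.32 in the lines and 12.14, 12.15 and 9.54 in E14. Its difference was -1.87 ± 0.74 (adjusted p = 0.11) with all arrays and -2.74 without rep3 (adjusted p = 0.0151). Ldhb, a subunit of lactate dehydrogenase, was at 12.06, 11.70, 11.56, 12.42 and 12.17 against 13.32, 13.31 and 12.73, lower by -1.14 ± 0.20 (adjusted p = 0.00333) and called lower on all 3 of its other probe sets. Pfkl, the liver form of phosphofructokinase, was lower by -1.21 ± 0.35 (adjusted p = 0.0363), a call lost without any 1 of AGH-OG-1, AGH-OG-2, AGH-EG-1, E14 rep1 or E14 rep2, with adjusted p up to 0.148. The abundant Aldoa and the glucose transporter gene Slc2a3 differed by -0.25 and -0.01.

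**Figure D4:**
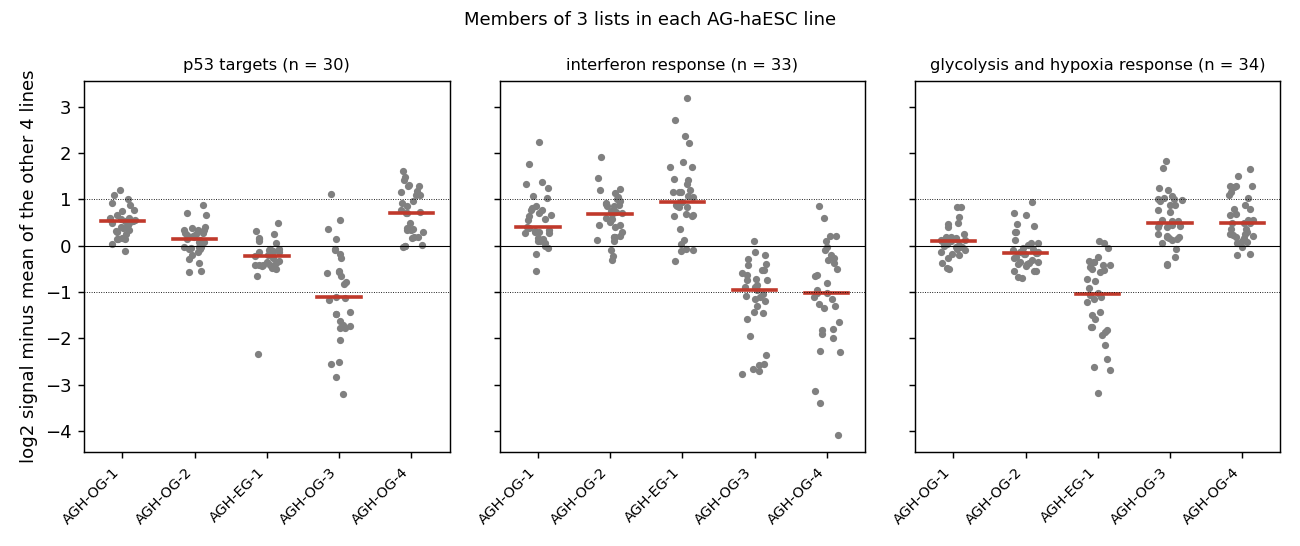
Log2 signal of each member gene in an AG-haESC line minus its mean in the other 4 lines (vertical axis), for p53 targets (n = 30 genes), the interferon response (n = 33) and glycolysis and hypoxia (n = 34), with the median as a red bar and dotted lines at a 2-fold difference. AGH-OG-3 has a median of -1.12 for p53 targets, AGH-OG-3 and AGH-OG-4 have -0.96 and -1.02 for the interferon response, and AGH-EG-1 has -1.04 for glycolysis and hypoxia.

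Among 48 collagens and other matrix genes, 12 were higher (25.0%) and 2 lower, numbers that became 19 and 4 without E14 rep3. Without E14 rep1, 7 were higher. Sparc, a matrix protein that binds collagen, read 13.40, 13.36, 13.08, 13.22 and 13.70 in the lines and 10.83, 10.38 and 11.36 in E14, higher by 2.50 ± 0.19 (adjusted p = 2.41e-05) and among the most even of these genes. Col5a2, a chain of a fibrillar collagen, read 8.81, 10.39, 9.70, 8.87 and 9.27 against 6.70, 6.67 and 8.10, higher by 2.25 ± 0.40 (adjusted p = 0.00335). Col1a2, a chain of collagen I, was higher by 2.69 ± 0.47 (adjusted p = 0.00303), a call lost with the mean of its probe sets. In both collagens AGH-OG-2 was the highest line and E14 rep3 the highest E14 array. Fibroblast markers were read beside these genes. Of 17 markers 5 were higher, all of them matrix genes that also stand in the list above, with a median difference of 1.07, and without E14 rep3 9 were higher and 1 lower, with a median of 1.62. Their summed linear signal was 3502, 12960, 7938, 4287 and 6917 in the lines, 1716, 1995 and 4425 in E14 and 184700 on average in MEF. Of the 17 markers 2, Tcf21 and Fap, were below the array median on every AG-haESC array, while 6 were below it on every E14 array. Of the 17 differences 12 were positive, and markers that are not matrix genes went both ways. Thy1 differed by 0.42 ± 0.36, Prrx1 by 1.07 ± 0.55, Twist1 by -0.15 ± 0.33 and Pdgfrb by -0.72 ± 0.49, and none of them was called. Without E14 rep3, Prrx1 was called higher (1.69) and Pdgfrb lower (-1.37), though the other probe set of Pdgfrb differed by 0.80 with all arrays. The 4 other probe sets of Prrx1 differed by -0.90 to 2.28 with all arrays, 2 of them above 0 and 1 called higher. The AG-haESC cultures were grown on feeder cells and were sorted on the 1n DNA peak before RNA was taken, and the part of feeder cells in the matrix result was not tested. In bulk samples, more cells of a type and more RNA per cell cannot be told apart.

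Targets of YAP and TEAD, the factors through which cells read tension and contact, held 7 higher genes among 28 (25.0%) and 0 lower, or 6 and 0 without E14 rep3. Ccn1, a secreted matrix regulator, read 11.84, 11.73, 11.26, 11.38 and 12.26 in the lines and 8.70, 9.12 and 9.14 in E14, and was called on all 3 of its other probe sets too. Ccn2, its relative also called CTGF, read 12.08, 11.92, 11.93, 11.44 and 12.16 against 9.91, 9.98 and 11.40, so that E14 rep3 lay just under the lowest line (1.47 ± 0.30, adjusted p = 0.00678). Lats2, the kinase that restrains YAP and is itself a target, was higher by 2.05 ± 0.30 (adjusted p = 0.00114). Yap1 itself differed by -0.18 ± 0.13 (adjusted p = 0.388). The count was 4 without AGH-OG-4. Ccn1 and Ccn2 are strongly expressed by fibroblasts as well, and the marker values above apply here.

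Of 45 genes of the actin cytoskeleton and targets of its factor SRF, 4 were higher (8.89%) and 1 lower with all arrays, and 12 and 1 without E14 rep3, in which 21 members stood at least 2-fold above rep1 and rep2. The number higher was 2 without AGH-OG-2, AGH-EG-1 or AGH-OG-4, 1 without E14 rep1 and 0 without E14 rep2. S100a10, a partner of annexin A2, read 12.51, 12.45, 12.65, 12.32 and 12.69 in the lines and 10.91, 10.95 and 12.39 in E14. It was higher by 1.10 ± 0.28 (adjusted p = 0.0213) and by 1.59 without rep3, and the call was lost without E14 rep1 or E14 rep2, with adjusted p up to 0.0965. Anxa1, annexin A1, was at 9.82, 10.94, 10.59, 10.29 and 10.58 against 7.39, 7.26 and 10.32. Here E14 rep3 lay within the lines, and the call (2.12 ± 0.57, adjusted p = 0.0277) was lost without AGH-OG-2, AGH-EG-1, AGH-OG-4, E14 rep1 or E14 rep2, with adjusted p up to 0.122. Actb and Actg1, the cytoplasmic actins, differed by 0.00 ± 0.15 and 0.31 ± 0.12. Cavin1, a coat protein of caveolae, was lower by -1.68 ± 0.30 (adjusted p = 0.0038).

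Targets of ERK signalling were lower for 7 of 24 members (29.2%) and higher for 0, with 7 and 1 without E14 rep3. Their median was -0.88 with all arrays and -0.62 without rep3, in which 11 members stood at least 2-fold above rep1 and rep2 and 4 below. The list value was -0.42, 0.06, -0.19, -0.46 and -0.41 in the lines and 0.12, 0.22 and 0.98 in E14, so AGH-OG-2 was close to rep1 and rep2. A MEK inhibitor was in the medium of AG-haESC and that of E14 is unknown here, so medium and cell type cannot be told apart. Egr1, an immediate-early transcription factor, read 9.37, 10.16, 9.13, 9.42 and 8.38 in the lines and 12.60, 12.27 and 11.88 in E14, with no overlap. Fosb, an AP-1 subunit, read 6.71, 6.60, 5.50, 6.04 and 6.01 against 8.36, 8.42 and 7.22, lower by -1.83 ± 0.35 (adjusted p = 0.00489). Junb, another AP-1 subunit, was lower by -1.26 ± 0.19 (adjusted p = 0.0013). Fos was not called with all arrays (-0.77 ± 0.35, adjusted p = 0.163) and was called without rep3 (-1.32, adjusted p = 0.00245), where its E14 values were 13.31 and 13.40 against 11.70 in rep3. Etv5, an ETS factor, differed by -0.04 ± 0.36.

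Of 18 WNT targets 4 were lower (22.2%) and 1 higher, the same numbers as without E14 rep3, and 0 were higher without AGH-OG-1, AGH-OG-4, E14 rep1 or E14 rep2. Ccnd1, described with G1 control, is 1 of the 4 lower genes and is also counted among the lower ERK targets. Fzd7, a WNT receptor, read 10.04, 9.54, 8.89, 9.99 and 9.85 in the lines and 11.10, 11.16 and 11.09 in E14, lower by -1.45 ± 0.23 (adjusted p = 0.00177). Bmp4, a growth factor of the BMP family counted in this list, read 6.20, 6.78, 6.46, 6.08 and 6.60 against 7.71, 7.64 and 10.52, lower by -2.20 ± 0.54 (adjusted p = 0.0185) and by -1.25 without rep3, in which it was highest. Lef1, a factor that carries the WNT signal to DNA, is counted among the primed epiblast genes as well, of which 3 of 18 were lower (16.7%) with all arrays and without rep3, where 1 was higher too. The others were Sox4, an SRY-box factor (-1.36 ± 0.26, adjusted p = 0.00528), and Otx2, which sets up the primed state (-1.34 ± 0.31, adjusted p = 0.0135). Lefty1, an inhibitor of Nodal that Nodal induces, read 10.94, 10.16, 11.11, 11.39 and 11.38 against 12.72, 12.70 and 13.01, lower by -1.81 ± 0.27 (adjusted p = 0.00115). Tdgf1, a co-receptor of Nodal, differed by -0.14 ± 0.12.

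Lefty1 belongs to a list of 30 genes of Nodal and TGF-beta signalling, of which 3 were lower (10%) and 0 higher, with 2 and 2 without E14 rep3 and 1 lower without AGH-EG-1. Of 25 genes of BMP signalling and its Id targets 1 was higher and 1, Bmp4, was lower, or 2 and 2 without E14 rep3. The higher gene was Smad6, an inhibitor of BMP signalling (1.02 ± 0.20, adjusted p = 0.00547), whose call was lost without AGH-OG-3, AGH-OG-4 or E14 rep3. Lipid genes held few calls, with 1 of 21 in cholesterol synthesis lower and 2 of 28 in fatty acid metabolism higher and 1 lower. These counts rested on single arrays. Without E14 rep3, cholesterol synthesis had 3 lower, and fatty acid metabolism 0 higher and 2 lower. Without any 1 AG-haESC line fatty acid metabolism had 1 higher, and without AGH-EG-1, E14 rep1 or E14 rep2 cholesterol synthesis had 0 lower. Fabp3, a fatty acid carrier, read 14.28, 14.04, 13.89, 14.63 and 14.56 in the lines and 13.44, 13.62 and 12 in E14 (1.26 ± 0.31, adjusted p = 0.0203), and was not called without E14 rep3, the lowest array. Of 31 lysosomal genes 1 was lower, the cathepsin gene Ctsz, at 11.12, 11.26, 10.76, 11.75 and 10.97 against 12.48, 12.44 and 12.24 (-1.22 ± 0.19, adjusted p = 0.00139), a call kept with each array left out, and without E14 rep3 3 lysosomal genes were lower. In MHC class I presentation 1 of 14 genes was higher and 1 lower, or 2 and 3 without E14 rep3. Tapbp, which loads peptides on class I molecules, was higher by 1.16 ± 0.25 (adjusted p = 0.0107), a call lost without E14 rep1 or rep2, and Psmb10, a subunit of the immunoproteasome, was lower by -1.31 ± 0.26 (adjusted p = 0.00631), a call lost without E14 rep3. Of 31 polycomb genes 1 was lower, Phc1 (-1.06 ± 0.22, adjusted p = 0.00708), which was not called without AGH-OG-3 or E14 rep3, and of 11 histone genes 0 were called by limma, with 1 at an adjusted p below 0.05. Without E14 rep3 both lists had 0 calls.

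Epithelial adhesion genes were lower for 4 of 39 members (10.3%) and higher for 0, with 5 lower and 4 higher without E14 rep3 and 2 lower without AGH-EG-1 or E14 rep2. The lower genes were components of tight junctions and their surroundings. Cldn6, a claudin of the early embryo, read 6.78, 6.94, 6.96, 7.45 and 7.46 in the lines and 8.35, 8.31 and 8.90 in E14 (-1.41 ± 0.27, adjusted p = 0.00526). Cgnl1, paracingulin, was lower by -1.37 ± 0.20 (adjusted p = 0.000968). Cgn, cingulin (-1.14 ± 0.28, adjusted p = 0.0196), lost its call without AGH-EG-1 or E14 rep2, with adjusted p up to 0.0702. Spint2, an inhibitor of surface proteases, was at -1.01 ± 0.14 (adjusted p = 0.000672), at the edge of the 2-fold limit, and lost its call without AGH-OG-1, AGH-EG-1, E14 rep1 or E14 rep2. Ctnnb1, the catenin shared by junctions and WNT signalling, differed by 0.02 ± 0.08.

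Of 37 naive pluripotency genes 3 were higher (8.11%) and 3 lower, 8 and 1 without E14 rep3, and 1 was lower without E14 rep2. Spic, an ETS factor of naive cells, read 8.83, 8.84, 9.21, 8.24 and 9.01 in the lines and 7.16, 6.77 and 5.82 in E14, higher by 2.25 ± 0.38 (adjusted p = 0.00279). Dppa3, a maternal factor that guards DNA methylation, was at 12.13, 11.66, 12.25, 13.28 and 12.40 against 10.17, 10.36 and 11.01. In both genes all lines were above all E14 arrays. In the other direction Lin28a, an RNA-binding protein that blocks the let-7 microRNAs, read 9.09, 10.58, 10.39, 9.82 and 8.71 against 10.97, 10.94 and 11.96 (-1.57 ± 0.42, adjusted p = 0.0277), a call lost without AGH-OG-1 or any 1 E14 array. Lefty1, already counted with the Nodal genes, is another of the 3 lower genes here. Gadd45b, a stress gene also linked to DNA demethylation, was higher by 1.56 ± 0.36 (adjusted p = 0.0141) in a list of 24 DNA methylation genes of which 3 were higher (12.5%) and 0 lower, with 5 higher without E14 rep3. Dppa3 is counted among those 3 as well. Hells and Trim28 of that list, which support methylation and the silencing of retroelements, differed by -0.32 ± 0.13 and -0.26 ± 0.10.

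Germline genes on the autosomes went in both directions, with 5 of 39 higher (12.8%) and 2 lower (5.13%), and 3 and 6 without E14 rep3. The median difference of the list changed sign with that array, from 0.18 with it to -0.54 without it. The number higher was also 3 without AGH-OG-1, AGH-OG-2, AGH-OG-4 or E14 rep2, and 2 without AGH-EG-1. Sycp1, which builds the central part of the synaptonemal complex of meiosis, read 10.27, 10.50, 11.24, 11.42 and 10.61 in the lines and 7.57, 7.65 and 6.61 in E14. All lines were well above E14, and it was called under every alternative run. Sycp3, of the lateral part of the same complex, went the other way, at 10.69, 10.46, 10.42, 11.41 and 10.89 against 12.20, 12.22 and 11.88 (-1.33 ± 0.24, adjusted p = 0.00425). Tex15, needed for meiotic recombination and the silencing of transposons, read 10.25, 10.02, 10.90, 11.22 and 10.12 against 9.39, 9.59 and 7.38, and its call (1.72 ± 0.45, adjusted p = 0.0262) was lost without AGH-EG-1 (adjusted p up to 0.0579). Hormad1, a protein of meiotic chromosome axes, was at 11.50, 11.49, 11.67, 10.67 and 11.63 against 9.50, 9.63 and 8.20, and its call (2.28 ± 0.68, adjusted p = 0.0416) was lost without any 1 array other than AGH-OG-3, with adjusted p up to 0.1001.

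Many germline promoters carry the E-box CACGTG, which the MGA and MAX proteins bind in stem cells. It was in the windows of 15 of 36 germline members (41.7%) against 11.6% of the autosomal genes tested and 8.09% of all genes with a window. These stretches of a gene that was higher, a gene that was lower and a gene that was not called, Slc25a31, a mitochondrial ATP carrier of germ cells, show that all 3 hold the element, in capitals.
Sycp1, chr3:102936169-102936214, minus strand: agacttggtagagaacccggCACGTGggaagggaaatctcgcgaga
Sycp3, chr10:88459503-88459548, plus strand: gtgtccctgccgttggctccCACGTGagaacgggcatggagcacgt
Slc25a31, chr3:40708758-40708803, plus strand: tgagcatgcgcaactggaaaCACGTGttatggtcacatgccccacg
The element was in 9.12% of the autosomal genes called higher and 11.2% of those called lower, near the share in all genes tested.

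Of 8 genes of the Pramel list with a probe set, 5 were autosomal and passed the filter on dim signal. Among these 5, 3 were higher (60.0%) and 0 lower, or 4 and 0 without E14 rep3. The 3 are Elobl, which is not a Pramel gene by its name, Pramel6 and Pramel7, which is known to support the ground state of stem cells. All 3 were below the array median on every E14 array. Among the stem cell arrays they thus passed the filter through AG-haESC alone, and the 60.0% cannot be set against the background share. Pramel7 read 8.52, 9.67, 9.81, 6.41 and 8.40 in the lines and 1.17, 4.96 and 2.77 in E14, at least 5.75-fold higher (adjusted p = 0.00167). Pramel6, its neighbour, read 9.57, 10.19, 10.67, 7.85 and 9.03 against 3.52, 4.83 and 4.82, at least 10.7-fold higher (adjusted p = 0.00253). AGH-OG-3 was the lowest line for both. Pramel12 and Pramel13 differed by 0.95 and 0.27 and were not called, though Pramel12 was called without AGH-OG-3 or E14 rep3. The genes of this family are similar in sequence, so signal could be shared between members. Of 7 tested genes of the 2-cell stage 1 was higher and 1 lower, with and without E14 rep3. The higher one was Calcoco2, an autophagy receptor, at 12.89, 12.97, 12.96, 11.66 and 12.72 against 10.19, 10.20 and 9.50 (2.68 ± 0.50, adjusted p = 0.00481).

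Hox genes, the regulators of the body axis, held 7 higher genes among 26 (26.9%) and 0 lower, or 6 and 0 without E14 rep3, although their signals were near the array medians. Hoxc4 read 7.45, 6.78, 6.87, 7.41 and 7.84 in the lines and 4.73, 4.93 and 1.72 in E14, at least 2.35-fold higher (adjusted p = 0.00359). Hoxd9 read 7.14, 6.89, 6.72, 7.16 and 7.51 against 6.07, 5.96 and 5.89, higher by 1.11 ± 0.24 (adjusted p = 0.00982), a call lost with a pseudocount. The count of the list fell to 2 with a pseudocount, to 3 with a floor and to 4 without AGH-OG-2, AGH-OG-4 or E14 rep1. Among markers of other lineages, a few dim genes were called. Gata3, a factor of the trophectoderm, read 7.84, 7.47, 7.48, 6.56 and 8.63 against 4.39, 0.64 and 1.57, at least 2.95-fold higher, and 2 of 9 trophectoderm markers were higher in all, or 4 without E14 rep3, with a summed signal of 5225 to 10400 against 3633 to 4914. Olig2, a neural factor, was at least 2.73-fold higher and Afp, an endoderm marker, at least 2.28-fold. Gata3, Olig2 and Afp were below the array median on every E14 array. Among the stem cell arrays they thus passed the filter through AG-haESC alone, and their calls cannot be set against the background share of 3.88%. For 14 endoderm markers the summed signal was 5718 to 6729 against 4392 to 6289, so the groups overlapped. For 1 of 14 endoderm markers and 1 of 13 neural markers the call was higher, or 2 and 1 without E14 rep3, and for 2 of 14 mesoderm markers, or 1 without it. Of 11 blood markers 1 was higher with and without rep3, Cd14, at 6.82, 6.79, 6.58, 6.81 and 7.14 against 2.16, 3.63 and 4.44. It was at least 1.73-fold higher (adjusted p = 0.000486), and it too was below the array median on every E14 array. Ptprc, Lyz2, Lyz1, Tyrobp and Fcer1g were below the array median on every AG-haESC array, while 7 of the 11 were below it on every E14 array. The summed signal of the 11 was 2523, 2108, 1709, 1061 and 2649 in the lines and 1194, 1234 and 1437 in E14.

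E14 rep3 departed from rep1 and rep2 in several programmes. By the median over each programme list, the departure was largest in germline and primed epiblast genes. Fibroblast markers, a list of another kind, had a median of 1.32, with 10 of 17 at least 2-fold higher in rep3 and 2 lower. Over all autosomal genes 11.8% were at least 2-fold lower in rep3 and 8.25% higher. Of the 39 germline genes 27 were at least 2-fold lower in rep3 and 0 higher, with a median of -1.65. Dazl, an RNA-binding protein of germ cells, read 8.27 in rep3 against 12.44 and 12.61, while the lines were at 12.70, 12.95, 13.07, 12.98 and 13.41. Stra8, which starts meiosis on retinoic acid, read 7.60 against 12.89 and 13.02, and Smc1b, a cohesin of meiosis, 3.29 against 9.02 and 8.99. In Dazl and Smc1b the lines were near rep1 and rep2, and rep3 alone was low. Of 18 primed epiblast genes 10 were at least 2-fold higher in rep3 and 0 lower, with a median of 1.16. Pou3f1, a factor of the primed epiblast, read 11.14 in rep3 against 7.15 and 7.24, and at most 8.24 in the lines. Myc, the growth regulator, read 10.36 against 6.21 and 6.63, and Ccnd2, a D-type cyclin, 11.36 against 7.09 and 6.79.

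In some genes rep3 lay within the AG-haESC lines. Pdgfc, a growth factor, read 10.77 in rep3 against 7.01 and 6.76, and 11.36, 10.52, 10.57, 10.07 and 10.69 in the lines. The labels give rep3 the same line, passage and sort as rep1 and rep2.

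**Figure D5:**
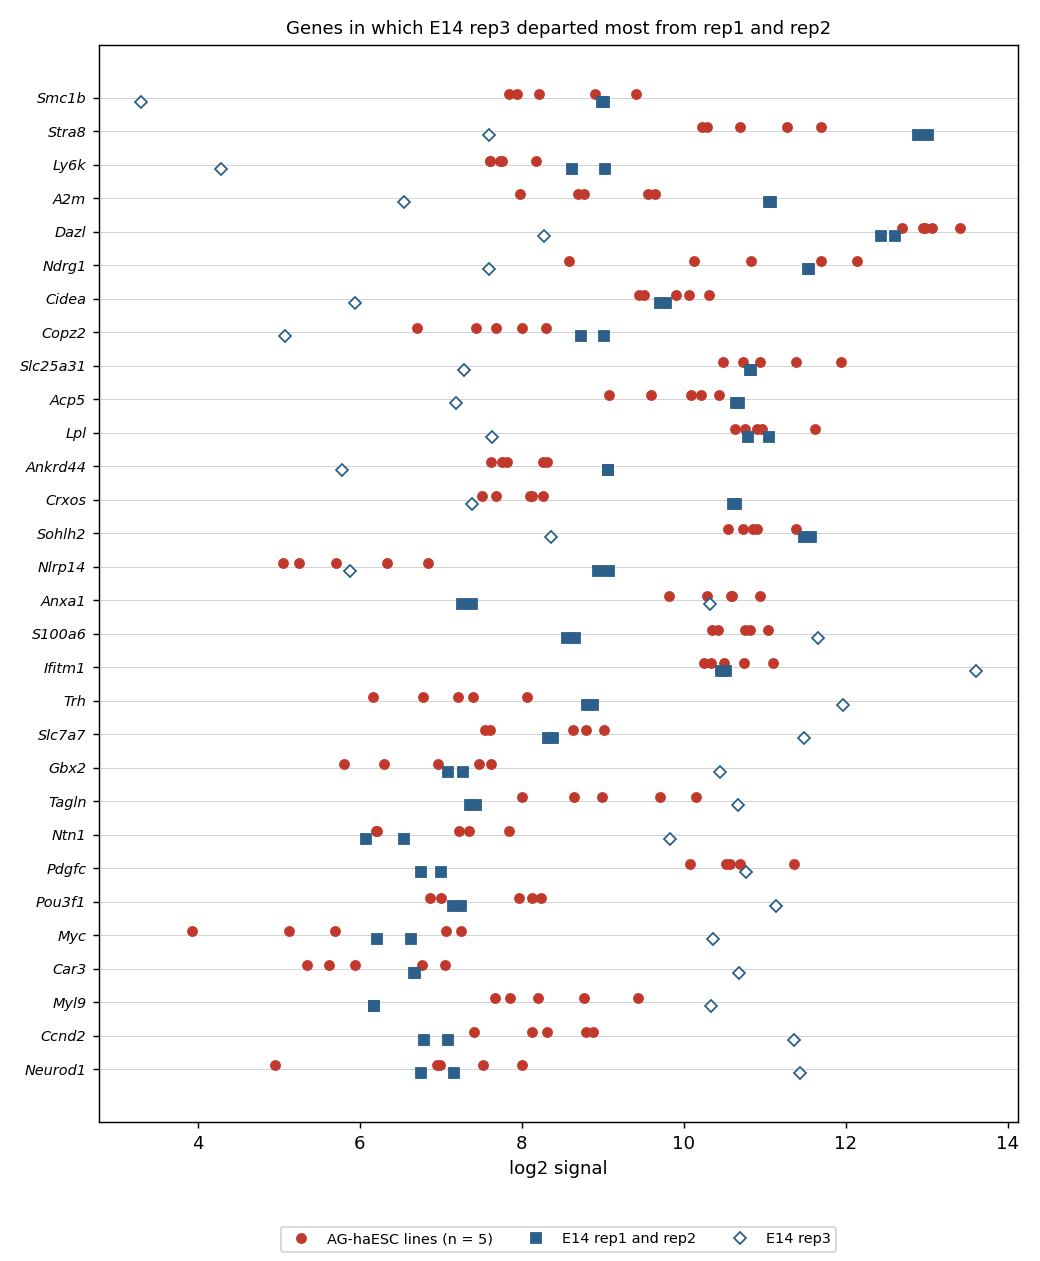
Log2 signal (horizontal axis) of the 15 genes most below and the 15 most above in E14 rep3, among genes in which rep1 and rep2 were within 0.5 of each other and at least 1 E14 array was above 9, with symbols as in the plot of the most changed genes. The diamonds of rep3 lie outside the AG-haESC range in most of these genes, as in Dazl, Smc1b, Pou3f1 and Ccnd2, and inside it in Anxa1, Pdgfc and Nlrp14.

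No run of neighbouring genes called in the same direction was longer than 3, and 8 runs had that length, 5 of them higher and 3 lower. The lower runs were Bdh2, Slc9b2 and Slc9b1 on chromosome 3, Crmp1, Evc and Evc2 on chromosome 5, and a run with Acap1 and Neurl4 on chromosome 11. Higher runs held Vangl1 and Tspan2 beside Sycp1 on chromosome 3, and Pzp and Clec2i on chromosome 6. Besides the Trim genes, 3 neighbours on chromosome 2 were higher, Serping1, an inhibitor of complement (1.55 ± 0.24), Ube2l6, a conjugating enzyme for ISG15 (at least 4.30-fold), and Smtnl1, a smooth muscle protein (3.08 ± 0.63). Ube2l6 read 8.18, 8.17, 8.73, 7.37 and 8.26 in the lines and 5.31, 4.43 and 4.95 in E14. On chromosome 9, Cd3d and Cd3g, chains of the T cell receptor complex, were at least 2.61-fold and 1.92-fold higher, with Mpzl2, an adhesion protein, beside them (1.11 ± 0.25). Mpzl2 lost its call without E14 rep1, with adjusted p up to 0.055. These neighbours were chosen after their values were seen. Nnt, the mitochondrial transhydrogenase that carries a deletion in C57BL/6J, read 9.74, 9.62, 9.57, 8.75 and 9.73 in the lines and 10.02, 10.19 and 10.02 in E14 and was not called (-0.60 ± 0.21, adjusted p = 0.0828). The position of its probes relative to the deletion was not determined, so Nnt is no check of the strain here. Casp4, which is disrupted in some 129 strains, was below the array median on all 8 arrays.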

How the data were processed

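Total RNA of sorted cells was measured on 1 array per sample. The authors deposited 1 intensity per probe set and array, on a linear scale, and MAS5 is the tool their processing notes name, without a version. The 2% trimmed mean was 496.3 to 497.0 in every array, and array medians were 55.9 to 68.0. The number of arrays limits the precision. After 64 controls were left out, 34945 probe sets had 1 gene symbol, 932 had several, and the rest had none listed. A probe set was kept when above its own array's median on at least 2 arrays, and the brightest kept probe set stood for a gene. Symbols and chromosomes were updated through the RefSeq table of GRCm38.p6.

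Log2 signals of all 10 arrays were fitted as 3 group means with limma 3.58.1 in R 4.3.3 (eBayes with a trend, 7 residual degrees of freedom), with two-sided p-values adjusted by Benjamini-Hochberg over 13251 genes. Where all arrays of the dimmer group were below their medians, a fold is given as "at least", with that group set at the medians. The fit was tested on simulated data, where it recovered 75% of 100 changes of 1.5 log2 units and 89% of 100 changes of 3, with 6 false calls. The simulated noise was independent between arrays, so the test does not cover a shift of many genes on 1 array, as in E14 rep3. Summaries used Python 3.11.15 with pandas 2.3.3.

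The genes named were the 12 increases and 12 decreases of largest difference, after signals of the dimmer group were raised to at least the array medians, among autosomal genes called with and without E14 rep3, without overlap and with the brighter group above the median on all arrays (provisional symbols left out), and up to 4 called and the 2 brightest uncalled members of each of 36 lists, with Nnt and Casp4. Others were chosen after their values were seen, namely Trim12a, Trim5, Trim34a, Oas1a, Igtp, Rsad2, Bst2, Gss, Gsr, Gsta2, Ccng1, Cdkn1a, Mdm2, Phlda3, Plk2 and Aldoc. The same holds for Slc25a31, Thy1, Prrx1, Twist1, Pdgfrb, stem cell and lineage markers, neighbours and the E14 rep3 genes. The comparison and the lists were chosen with earlier results of these data known. X-linked, Y-linked and imprinted genes were left out.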

Additional observations from a re-analysis of the deposited data

Results flagged for a closer look

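Among the 5 AG-haESC lines, 14 genes had 1 line far from the others, out of 209 genes and lists examined for it by Dixon's criterion, where chance marks about 1 in 20. AGH-OG-3 was the line in 9 of them. It was low for Trp53inp1 (11.37, others 13.12 to 13.75), Ccng1 (9.961, others 12.91 to 13.39), Etv5 (11.03, others 12.27 to 12.47), Hormad1 (10.67, others 11.49 to 11.67), Calcoco2 (11.66, others 12.72 to 12.97), Zfp809 (9.085, others 9.912 to 10.01) and Nnt (8.745, others 9.568 to 9.74). It was high for the chaperone Hspa8 (15.38, others 14.96 to 15.08) and for Txn1 (14.89, others 14.61 to 14.68). AGH-EG-1 was low for Kbtbd11 (2.162, others 5.402 to 6.323) and Lef1 (7.088, others 8.204 to 8.479). AGH-OG-4 was low for Ccne1 (10.07, others 11.82 to 12.22) and Tead4 (6.598, others 7.387 to 7.635), and AGH-OG-2 was high for Bcat2 (7.736, others 7.046 to 7.204).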

How the results depend on the processing

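Of 98 named genes that were called, 61 stayed called under all 17 alternatives run and 37 lost the call in at least 1. Of 69 that were not called, 5 were called in at least 1. With array weights, the counts were 847 lower among autosomal genes, 7 higher for ATF4, 11 lower for glycolysis and hypoxia, 18 higher for interferon and 19 higher for matrix. Without a trend they were 2 higher for the germline, 4 for interferon and 4 for Hox genes. The Hox count was 2 after adding 32 to every signal and 3 after raising signals to at least the array median, and the glycolysis count was 2 with the mean of probe sets, where the cathepsin gene Ctsl turned from -0.07 to 1.97. With that floor E14 rep3 was 2-fold away in 12.1% of genes. The causes were not tested. With 1 array left out in turn, the ranges were 400 to 574 higher and 285 to 649 lower over autosomal genes, 1 to 7 for ATF4, 2 to 9 for glycolysis and hypoxia, 7 to 10 for redox defence, 5 to 7 for ERK targets, 2 to 5 for the germline, 3 to 4 for the Pramel list, 4 to 13 for interferon, 7 to 19 for matrix, 4 to 8 for YAP and 4 to 7 for Hox genes. Signals near the array median limit dim genes: for 190 called genes the dimmer group was wholly below it, and for 14 both groups were. Of 595 other probe sets of 385 called genes, 512 had the same sign (86.1%), 227 were called the same way (38.2%) and 10 the opposite way. No paired analysis was possible because each AG-haESC array is its own line and the labels give no replicate numbers shared with E14.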
